A study of Danio rerio with 11 samples.

Results

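Glycolysis turns glucose into pyruvate through a chain of enzymes, and vertebrates carry several genes (isozymes) for most of its steps. The 32 enzymes described here are the zebrafish genes of the 10 steps from glucose to pyruvate and of lactate dehydrogenase, which converts pyruvate to lactate. They were taken from a list of symbols ordered by step, and all 32 were found among the 30243 Entrez genes in the files. Isozymes of a step catalyse the same reaction but are used in different tissues. In mammals, PGAM2, ENO3, PFKM and ALDOA are the forms of skeletal muscle, ENO2 and ALDOC those of neural tissue, and PKLR that of liver and red blood cells. Hexokinase, phosphofructokinase and pyruvate kinase catalyse the practically irreversible steps at which flux is controlled.

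RNA was sequenced from whole zebrafish of the TG(fli1:EGFP) line at 48 hours after fertilisation, from 5 wild-type (WT) samples and 6 samples labelled as knockouts of aldh3a1 (aldh3a1_KO), an aldehyde dehydrogenase gene. All embryos were raised in E3 medium, some with the pigment inhibitor PTU, and which samples received it is not stated. The labels also do not say whether samples of a group were separate clutches or pools, or which mutation the aldh3a1_KO embryos carry, and the p-values here cover no more than the spread among the 11 samples. In whole embryos, fewer cells of a type and less RNA per cell cannot be told apart.

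Library totals ran from 18.1 to 19.97 M estimated counts (M, mega) in WT and from 9.22 to 17.2 M in aldh3a1_KO, so low genes were measured less precisely in aldh3a1_KO. Mitochondrially encoded transcripts took 8.13 to 9.80% of TPM (a normalised transcript abundance, a level per transcript length) in WT and 8.84 to 39.2% in aldh3a1_KO, which lowers the TPM of all other genes in the libraries where that share is high. The targeted gene aldh3a1 was detected in every library, at 1.18 to 1.96 TPM in WT and 0.342 to 1.30 TPM in aldh3a1_KO (log2 fold change -0.62 ± 0.27 SE, edgeR adjusted p = 0.0621). A gene is called changed at an adjusted p under 0.05 in edgeR's quasi-likelihood test over 22182 genes, and log2 fold changes are aldh3a1_KO against WT on counts scaled by TMM, a between-library scaling that left the median of all tested genes at -0.12. By this rule 55.3% of all tested genes were called, 26.0% higher and 29.3% lower, so a call on its own was common in these data.

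Transcripts of the glycolysis enzymes were mostly lower in aldh3a1_KO embryos. At several steps some isozymes fell while others rose or were not called, and differences in change between isozymes were not tested. Of the 29 enzymes with enough counts for a test, 15 fell, 3 rose and 11 were not called. That is 51.7% lower and 10.3% higher, beside 29.3% and 26.0% of all tested genes. The enzymes that fell were hk1, gpia, gpib, pfkma, pfkla, pfklb, aldoaa, aldoab, gapdh, pgk1, eno1a, eno3, pkmb, ldha and ldhba, and 11 of them fell at least 2-fold, beside 19.1% of all tested genes. In TPM, 12 of the 29 had every aldh3a1_KO library below every WT library, beside 23.1% of all tested genes. In TMM-scaled CPM 7 of the 29 did, a share near the 20.0% of all tested genes. Those 7 were hk1, gpia, pfkla, pfklb, pgk1, ldha and ldhba. The groups of aldoaa, gapdh, eno1a, eno3 and pkmb were apart in TPM but overlapped in CPM. The enzymes that rose were pfkpa, pfkpb and eno2. The median log2 fold change of the 29 was -0.74, against -0.12 for all tested genes. When aldh3a1_KO 1, 5 and 6, which had the most mitochondrially encoded RNA, were left out, 16 enzymes fell and 3 rose. The 16 were the 15 above and pgam2, while among the 3 that rose pgam1b stood in place of pfkpb. In that comparison 50.1% of all tested genes were called, 26.1% lower and 24.0% higher. On log2(TPM + 1), tested with limma, 19 enzymes fell and 0 rose, beside 36.0% lower and 19.8% higher among all tested genes (55.8% called). The 3 enzymes left untested were gck, with 55 counts over the WT and 28 over the aldh3a1_KO libraries, pfkmb, with 25 and 6, and aldoca, with 8 and 8, so these 3 took little of their steps in either genotype.

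**Figure D1:**
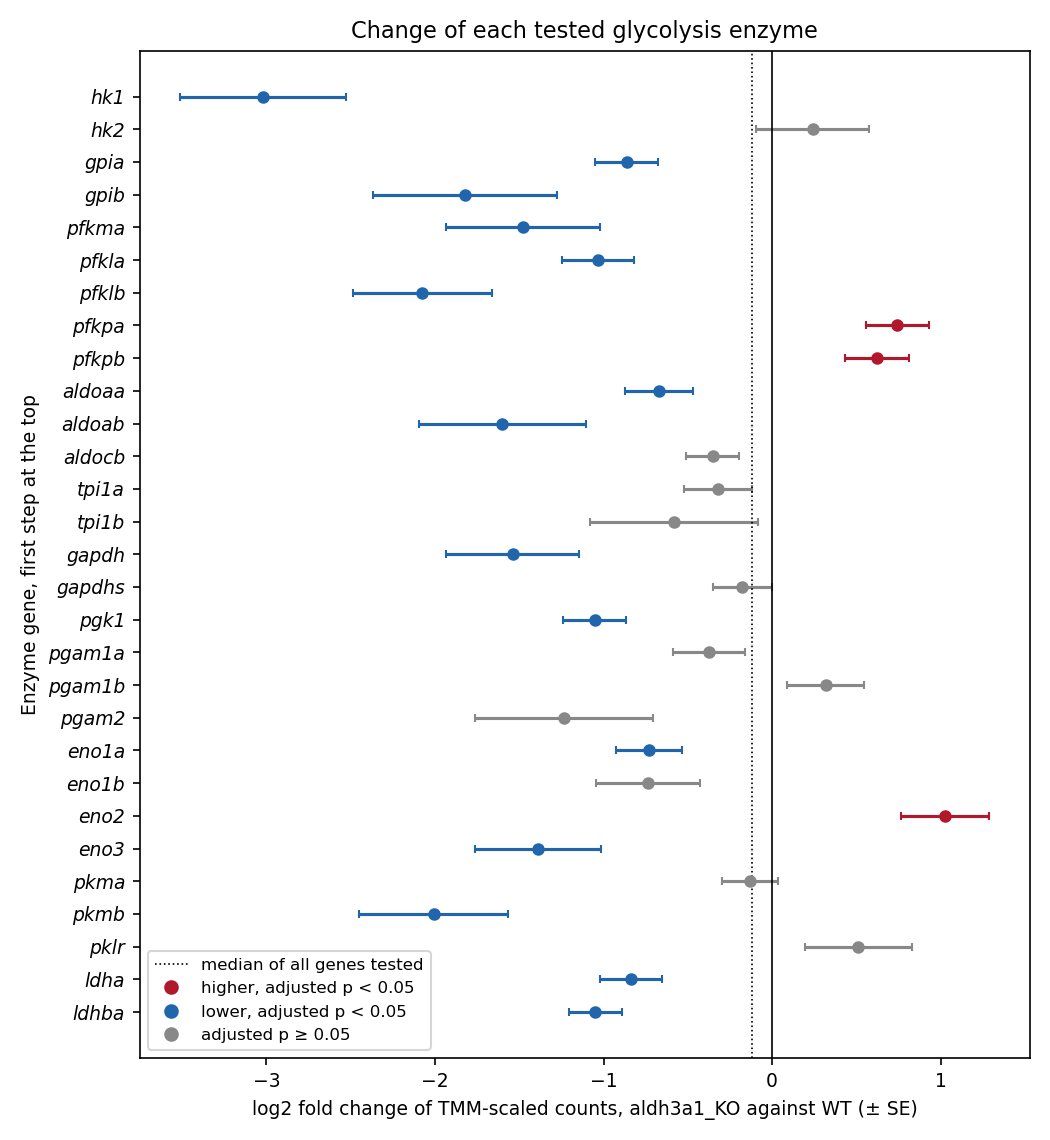
Log2 fold change of each of the 29 tested enzymes, aldh3a1_KO against WT (n = 6 and 5, points with SE bars), in the order of the pathway from top to bottom. Blue points are the 15 enzymes that fell, red points the 3 that rose and grey points the 11 that were not called. The dotted line is the median of all tested genes, -0.12.

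Summed over its isozymes, the mean TPM was lower in aldh3a1_KO at all 11 steps. At 8 of them no aldh3a1_KO library reached the lowest WT library in TPM. Taken singly, 23.1% of all tested genes were apart in this direction, and no such share was computed for sums of genes. The 3 steps whose sums overlapped in TPM were hexokinase, phosphofructokinase and triosephosphate isomerase. At some of the 8 separated steps, but not at all of them, the separation depended on the mitochondrial share. With mitochondrially encoded transcripts left out of the total, aldh3a1_KO 1 lies above WT 4 at glucose-6-phosphate isomerase, aldolase, glyceraldehyde-3-phosphate dehydrogenase, phosphoglycerate mutase and enolase. At phosphoglycerate mutase aldh3a1_KO 3, 5 and 6 then lie above WT 4 as well. The groups stay apart at lactate dehydrogenase, phosphoglycerate kinase and, narrowly, pyruvate kinase. Phosphofructokinase had the smallest difference, at 26.9 ± 7.76 TPM over WT and 22.5 ± 5.59 over aldh3a1_KO libraries (SD). Its direction turned when mitochondrially encoded transcripts were left out of the total, with a log2 ratio of the sums of 0.0095 in place of -0.25. Summed over all 32 genes, the enzymes held 3260, 3421, 5095, 2301 and 2997 TPM in the WT libraries, and a lowest, median and highest of 1285, 1401 and 1692 TPM in aldh3a1_KO. In TPM each WT library was above every aldh3a1_KO library. Mitochondrially encoded transcripts took 9.34% of TPM in WT 4, the lowest WT library, and 39.2% in aldh3a1_KO 1, the highest of its group. With these transcripts left out of the total, the sum of aldh3a1_KO 1 lies above that of WT 4, so the groups overlap.

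The isozyme with the highest mean TPM was the same in both genotypes at 7 of the 11 steps, one of which, phosphoglycerate kinase, has a single listed gene. At the other 4 steps the lead passed from hk1 to hk2, from gpib to gpia, from aldoab to aldoaa and from pkmb to pkma. The hexokinase lead did not rest on 1 library, since hk1 led in 5 of 5 WT libraries and hk2 in 6 of 6 aldh3a1_KO libraries. The leads of gpib and aldoab in WT rested on WT 3, without which gpia and aldoaa led in both genotypes. The mean of the shares within each library, which weights libraries equally, already had aldoaa slightly ahead in WT, at 46.5% against 45.1% for aldoab, and aldoaa also led in WT in TMM-scaled CPM. The share of an isozyme within its step is a ratio inside each library, so the mitochondrial share of a library does not enter it.

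**Figure D2:**
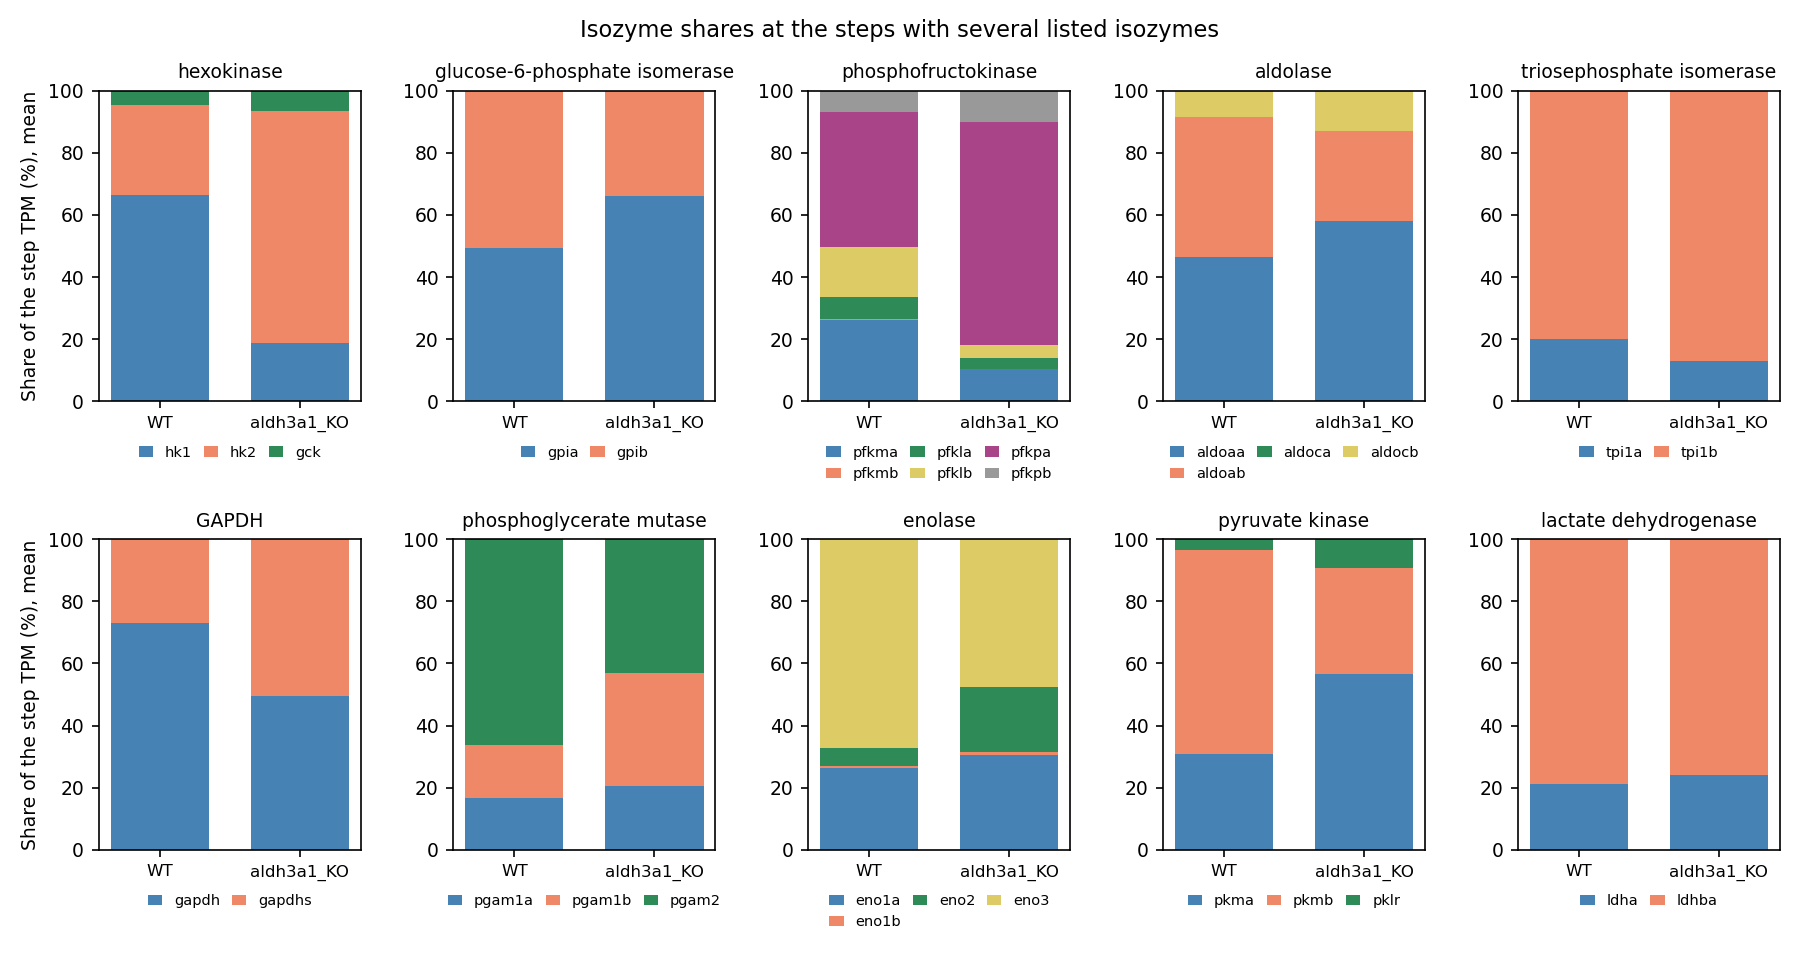
Mean share of each listed isozyme in the summed TPM of its step, in percent, for WT (n = 5) and aldh3a1_KO (n = 6), at the 10 steps with several listed isozymes. The hk1 share went from 66.2 to 18.8% and the pfkpa share from 43.5 to 71.8%, while the ldhba share was 78.7 and 75.8%.

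Hexokinases phosphorylate glucose and so keep it in the cell. The broadly used hexokinase gene hk1 (Entrez gene 406791) stood at 3.82, 6.98, 8.81, 1.91 and 4.70 TPM in the 5 WT libraries. In aldh3a1_KO its lowest, median and highest values were 0.162, 0.438 and 1.65 TPM. All 6 aldh3a1_KO libraries were below the lowest WT library, WT 4, and hk1 fell 8.09-fold in mean CPM (edgeR log2 fold change -3.02 ± 0.49 SE, adjusted p = 0.000194). Of the 29 tested enzymes it had the largest decrease. The gene hk2, whose mammalian counterpart is the insulin-responsive form of muscle and fat, was at 1.05 to 3.36 TPM in WT and 1.27 to 2.74 TPM in aldh3a1_KO (log2 fold change 0.24 ± 0.34, edgeR adjusted p = 0.559). Its sign turned on log2(TPM + 1), where it was at -0.004, and without aldh3a1_KO 1, 5 and 6, where it was at -0.19. The hk1 share of the hexokinase TPM averaged 66.2% ± 11.9 over the WT libraries and 18.8% ± 10.9 over those of aldh3a1_KO (SD), with no overlap. Glucokinase, gck, the high-capacity hexokinase of liver and beta cells, took 4.55% and 6.63%. The genes hkdc1, eno4 and ldhbb, which are not among the 32, led neither genotype when added to the hexokinase, enolase and lactate dehydrogenase steps.

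Glucose-6-phosphate isomerase makes fructose 6-phosphate and has a pair of zebrafish genes. The gene gpia (Entrez gene 246094) was at 27.4, 26.9, 42.5, 30.0 and 33.4 TPM in WT and between 11.7 and 16.4 TPM in aldh3a1_KO, and the groups did not overlap (log2 fold change -0.86 ± 0.19, edgeR adjusted p = 0.00151). Its copy gpib (Entrez gene 246095) varied far more, at 37.7, 43.0, 81.7, 11.6 and 22.8 TPM in WT, with a lowest, median and highest of 3.54, 5.33 and 20.6 TPM in aldh3a1_KO. Here aldh3a1_KO 1 and 3 stood above WT 4, so the groups overlapped, and gpib fell with a larger error (log2 fold change -1.82 ± 0.55, edgeR adjusted p = 0.0119). The difference in change between the copies was not tested.

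Phosphofructokinase commits fructose 6-phosphate to glycolysis, and its 5 tested genes went opposite ways. The pfkm and pfkl genes are named after the muscle and liver subunits of mammals, and pfkp after the platelet subunit. The leading gene in both genotypes was pfkpa (Entrez gene 560944), at 8.57, 10.8, 11.7, 11.6 and 13.4 TPM in WT and a lowest, median and highest of 11.005, 16.6 and 22.9 TPM in aldh3a1_KO. It rose by 0.74 ± 0.19 on the log2 scale (edgeR adjusted p = 0.00408), and its copy pfkpb, at 1.41 to 2.14 TPM in WT and 1.89 to 2.91 TPM in aldh3a1_KO, by 0.62 ± 0.19 (adjusted p = 0.0130). On TMM-scaled CPM neither gene's groups overlapped, as for 17.8% of all tested genes in this direction. On log2(TPM + 1) both calls were lost, at 0.47 (limma adjusted p = 0.0981) and 0.20 (limma adjusted p = 0.291). That scale put the median over all tested genes at -0.26. The pfkpb call was also lost without aldh3a1_KO 1, 5 and 6 (edgeR adjusted p = 0.0706).

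The other 3 tested phosphofructokinase genes fell. The liver-type gene pfklb (Entrez gene 550259) was at 2.74, 3.89, 6.85, 3.71 and 4.55 TPM in WT and between 0.103 and 1.72 TPM in aldh3a1_KO, with no overlap (log2 fold change -2.07 ± 0.41, edgeR adjusted p = 0.000843). Its relative pfkla also did not overlap, at 1.43 to 2.51 TPM and 0.473 to 1.09 TPM (log2 fold change -1.03 ± 0.21, adjusted p = 0.00105). The muscle-type gene pfkma was at 6.52, 7.44, 16.9, 2.54 and 4.28 TPM in WT and 1.28 to 3.76 TPM in aldh3a1_KO, so that the groups overlapped at WT 4 (log2 fold change -1.48 ± 0.46, adjusted p = 0.0136). Its call rested on WT 3, the highest library, without which it was at -1.01 (edgeR adjusted p = 0.0571). The pfkpa share of the step averaged 43.5% ± 9.88 over WT and 71.8% ± 7.12 over aldh3a1_KO libraries (SD), with no overlap.

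Aldolase splits fructose 1,6-bisphosphate into 2 triose phosphates, and the listed forms are copies of mammalian ALDOA and ALDOC. In WT, aldoaa and aldoab held nearly equal means, 315 ± 80.4 and 334 ± 179 TPM, with aldocb at 53.7 ± 10.8 TPM (SD, n = 5). The gene aldoab (Entrez gene 406496) was at 321, 388, 602, 128 and 231 TPM in WT and at 25.1, 85.3 and 150 TPM (lowest, median and highest) in aldh3a1_KO. Its groups overlapped at WT 4 and aldh3a1_KO 1 (log2 fold change -1.60 ± 0.50, edgeR adjusted p = 0.0142), and without aldh3a1_KO 5 the adjusted p was 0.0504. The gene aldoaa was at 234 to 447 TPM in WT and 120 to 231 TPM in aldh3a1_KO (log2 fold change -0.67 ± 0.20, adjusted p = 0.0118). The neural-type gene aldocb, at 39.8 to 68.3 TPM in WT and 26.5 to 43.2 TPM in aldh3a1_KO, was not called (-0.35 ± 0.16, adjusted p = 0.0716).

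Triosephosphate isomerase interconverts the triose phosphates, and tpi1b led this step in both genotypes. Its values were 127, 144, 201, 51.5 and 10.5 TPM in WT and 47.9, 56.3 and 74.3 TPM (lowest, median and highest) in aldh3a1_KO. WT 5 was below every aldh3a1_KO library and WT 1, 2 and 3 were above all of them. With all libraries tpi1b was not called (log2 fold change -0.58 ± 0.50, edgeR adjusted p = 0.334), and without WT 5 it was at -0.88 (edgeR adjusted p = 0.0305). In WT 5 tpi1a led instead, since tpi1b took 38.2% of the step there and 81.0 to 95.1% in the other WT libraries. The gene tpi1a was at 9.43 to 16.9 TPM in WT and 5.002 to 11.7 TPM in aldh3a1_KO (log2 fold change -0.32 ± 0.20, adjusted p = 0.191).

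Glyceraldehyde-3-phosphate dehydrogenase is the oxidation step of the pathway, and over all libraries gapdh had the highest mean TPM of the 32 genes in both genotypes. The gene gapdh (Entrez gene 317743) was at 974, 869, 1571, 499 and 775 TPM in WT and at 139, 233 and 492 TPM (lowest, median and highest) in aldh3a1_KO. The groups did not overlap in TPM, although WT 4 and aldh3a1_KO 1 nearly met, and overlapped in CPM, and gapdh fell 2.90-fold in mean CPM (edgeR log2 fold change -1.54 ± 0.39, adjusted p = 0.00456). The second gene gapdhs, whose mammalian counterpart is the sperm form, was at 246 to 389 TPM in WT and 132 to 317 TPM in aldh3a1_KO (log2 fold change -0.18 ± 0.18, adjusted p = 0.416), and at 0.021 without aldh3a1_KO 1. The gapdhs share of the step was 20.1, 26.2, 16.4, 38.9 and 33.4% in WT, against 21.2, 67.4, 47.5, 67.4, 54.5 and 45.5% in aldh3a1_KO 1 to 6. Thus gapdhs led in 3 of 6 aldh3a1_KO libraries and in 0 of 5 WT libraries, and without aldh3a1_KO 1 it had the higher mean TPM in aldh3a1_KO. Averaged as shares within each library, gapdhs and gapdh held 50.6% ± 17.2 and 49.4% ± 17.2 in aldh3a1_KO (SD, n = 6), a difference well inside their spread.

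Phosphoglycerate kinase makes the first ATP of the pathway and has 1 listed gene, pgk1 (Entrez gene 406696). It was at 73.0, 78.5, 116, 56.4 and 84.8 TPM in WT. In TPM the aldh3a1_KO libraries lay close together, between 29.7 and 36.1, all below WT (log2 fold change -1.05 ± 0.19, edgeR adjusted p = 0.000374). In TMM-scaled CPM they lay further apart, from 52.0 to 88.0, still below the lowest WT library at 98.1. The within-group spread of pgk1 was 0.32 in WT and 0.28 in aldh3a1_KO (SD of log2 CPM), while the median over all tested genes was 0.26 and 0.47.

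Phosphoglycerate mutase moves the phosphate group of phosphoglycerate, and the muscle-type gene pgam2 (Entrez gene 572733) had the highest mean TPM of the step in both genotypes. In TMM-scaled CPM, which is not per length, pgam1b led in aldh3a1_KO instead. The pgam2 values were 139, 159, 213, 51.2 and 95.1 TPM in WT and 77.0, 24.7, 54.3, 7.59, 30.1 and 63.5 TPM in aldh3a1_KO 1 to 6. With its wide spread in aldh3a1_KO it was not called (log2 fold change -1.24 ± 0.53, edgeR adjusted p = 0.0602). It passed in 6 of 21 alternatives, among them without aldh3a1_KO 1 (-1.45, edgeR adjusted p = 0.0365), without WT 4 (-1.44, edgeR adjusted p = 0.0337) and without aldh3a1_KO 1, 5 and 6 (-2.07, edgeR adjusted p = 0.0313). The brain-type genes pgam1a (-0.37 ± 0.21, adjusted p = 0.152) and pgam1b (0.32 ± 0.23, adjusted p = 0.249) were not called, though pgam1b passed without aldh3a1_KO 1 (0.55, edgeR adjusted p = 0.0288) and without aldh3a1_KO 1, 5 and 6 (0.55, edgeR adjusted p = 0.0429). The pgam2 share averaged 66.4% ± 14.7 over WT and 43.2% ± 22.8 over aldh3a1_KO libraries (SD), with overlap, and pgam1b led in 3 of 6 aldh3a1_KO libraries.

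Enolase makes phosphoenolpyruvate, and its isozymes divided by direction. The muscle-type gene eno3 (Entrez gene 378963) was at 275, 291, 477, 166 and 175 TPM in WT and at 49.8, 74.7 and 155 TPM (lowest, median and highest) in aldh3a1_KO, without overlap in TPM but with overlap in CPM (edgeR log2 fold change -1.39 ± 0.37, adjusted p = 0.00610). The broadly used gene eno1a was at 75.6 to 150 TPM in WT and 44.2 to 54.5 TPM in aldh3a1_KO, likewise apart in TPM alone (log2 fold change -0.73 ± 0.20, adjusted p = 0.00623). Neuron-specific enolase, eno2 (Entrez gene 402874), was at 15.5, 19.2, 18.3, 20.6 and 30.2 TPM in WT and 17.9, 29.2, 32.3, 37.6, 59.0 and 26.8 TPM in aldh3a1_KO 1 to 6. It rose by 1.03 ± 0.26 on the log2 scale (edgeR adjusted p = 0.00460), although aldh3a1_KO 1, 2 and 6 lay within the WT range in TPM. With mitochondrially encoded transcripts left out of the total, aldh3a1_KO 1 remains in that range, while aldh3a1_KO 6 and, narrowly, aldh3a1_KO 2 lie above it. On log2(TPM + 1) eno2 was at 0.62 and lost the call (limma adjusted p = 0.0624). Its share of the step averaged 5.84% ± 2.91 over WT and 20.9% ± 9.17 over aldh3a1_KO libraries (SD). The low gene eno1b, at 2.45 to 3.62 TPM in WT and 0.785 to 2.57 TPM in aldh3a1_KO, was at -0.74 ± 0.31 (edgeR adjusted p = 0.0570).

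Several neuronal transcripts rose in aldh3a1_KO, and their values stand here beside those of eno2. Of 10 neuron markers, which do not include eno2, 5 rose and 0 fell, beside 26.0% higher and 29.3% lower among all tested genes, and the rest were not called. Their summed TPM was 1308 to 2095 in WT and 1317 to 3515 in aldh3a1_KO, with none of the markers at 0 in either genotype. The aldh3a1_KO library with the lowest sum, aldh3a1_KO 1, also had the lowest eno2 TPM of that group, while the highest eno2 TPM was in aldh3a1_KO 5, whose marker sum in TPM was second to aldh3a1_KO 4. Mitochondrially encoded transcripts took 34.8% of TPM in aldh3a1_KO 5 and 8.84% in aldh3a1_KO 4. With these transcripts left out of the total, aldh3a1_KO 5 is the highest of its group for both eno2 and the marker sum. The part of neuronal content in the eno2 result was not tested. Of 7 tested photoreceptor markers 1 rose and 3 fell, and of 6 lens markers 0 rose and 5 fell, beside the same 26.0% and 29.3% of all tested genes.

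Pyruvate kinase makes pyruvate and ATP. The gene pkmb (Entrez gene 445094) was at 70.5, 89.9, 171, 32.9 and 71.9 TPM in WT and at 9.41, 12.8 and 31.7 TPM (lowest, median and highest) in aldh3a1_KO, without overlap in TPM, and fell 4.02-fold in mean CPM (edgeR log2 fold change -2.01 ± 0.44, adjusted p = 0.00173). Its copy pkma was at 28.7 to 39.8 TPM in WT and 14.7 to 41.8 TPM in aldh3a1_KO (log2 fold change -0.13 ± 0.17, adjusted p = 0.523), and at 0.065 without aldh3a1_KO 1. As a result pkmb led in 4 of 5 WT libraries, with a mean share of 65.6% ± 14.5, and pkma in 5 of 6 aldh3a1_KO libraries, with 56.5% ± 17.2 (SD). The exceptions were WT 4, led by pkma, and aldh3a1_KO 1, led by pkmb. The liver and erythroid gene pklr was low in both, at 3.83 ± 1.41 and 4.51 ± 0.990 TPM (SD, n = 5 and 6; log2 fold change 0.51 ± 0.32, adjusted p = 0.185). Of 6 erythroid markers 4 fell and 0 rose, beside 29.3% and 26.0% of all tested genes, with summed TPM of 887 to 3270 in WT and 505 to 1272 in aldh3a1_KO. Of 5 tested liver markers 0 were called, with summed TPM of 22.3 to 262 and 59.7 to 249. Their part in the pklr values was not tested.

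Lactate dehydrogenase converts pyruvate to lactate and back, and both listed genes fell together. The heart-type gene ldhba (Entrez gene 30497) was one of the steadiest of the 32 within WT, at 357, 313, 336, 361 and 347 TPM. In aldh3a1_KO it was at 100.1, 187, 137, 205, 138 and 104 TPM in libraries 1 to 6, all far below WT, and it had the smallest adjusted p of the 29 enzymes (log2 fold change -1.05 ± 0.16, edgeR adjusted p = 0.000101). The muscle-type gene ldha was at 66.9 to 140 TPM in WT and 37.9 to 49.6 TPM in aldh3a1_KO, without overlap (log2 fold change -0.84 ± 0.18, adjusted p = 0.00169). With both lower, the ldhba share averaged 78.7% ± 5.21 over WT and 75.8% ± 4.98 over aldh3a1_KO libraries (SD), the smallest shift of a lead isozyme at any step with several genes.

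**Figure D3:**
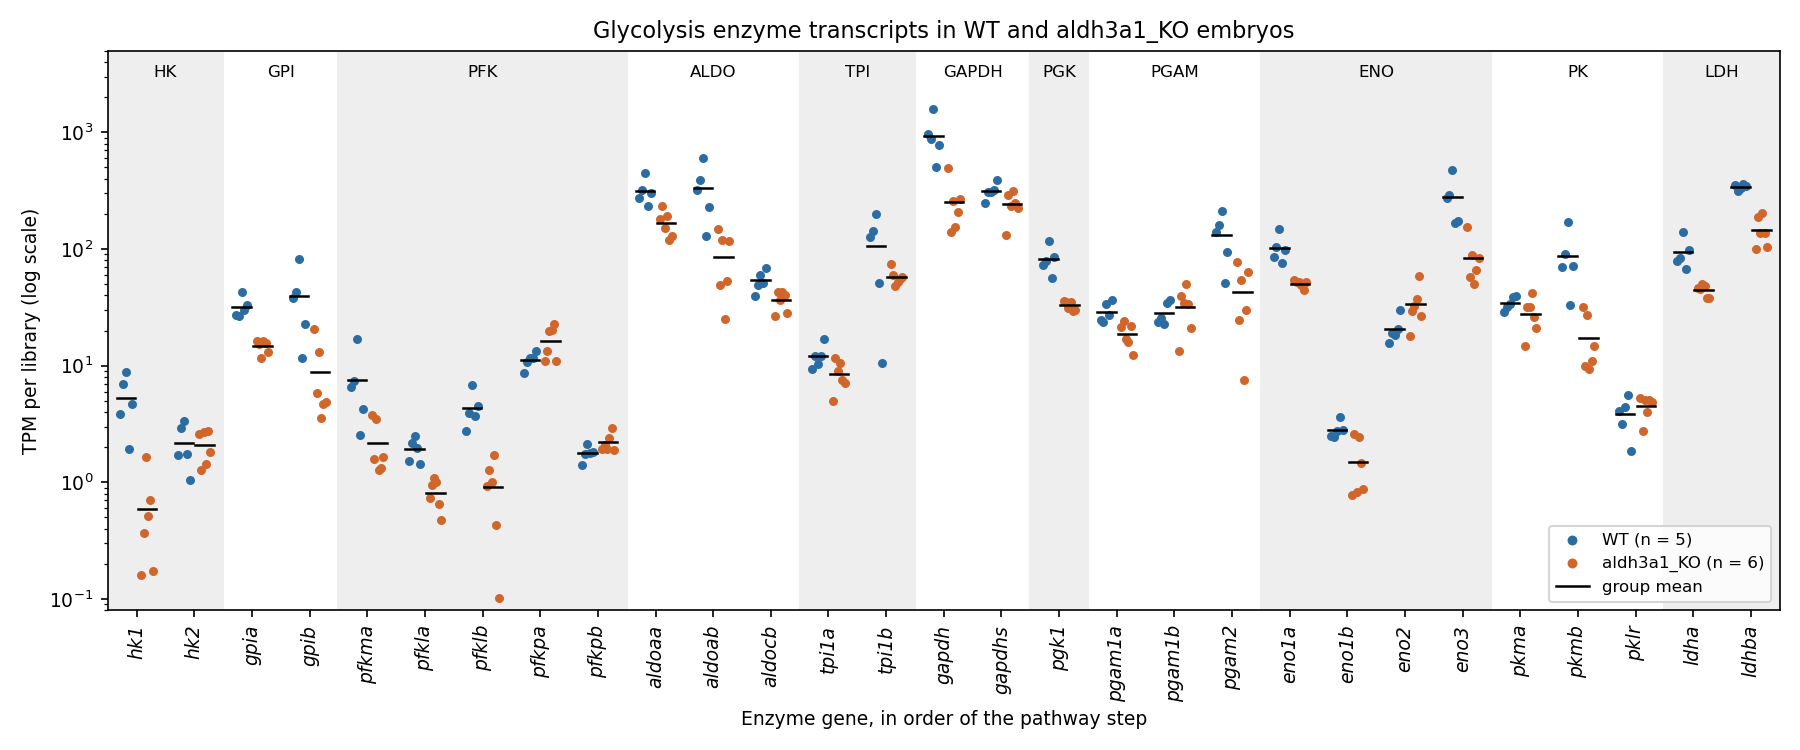
TPM of each of the 29 tested enzymes in every library on a log scale, grouped by step along the pathway (HK, hexokinase; GPI, glucose-6-phosphate isomerase; PFK, phosphofructokinase; ALDO, aldolase; TPI, triosephosphate isomerase; PGK, phosphoglycerate kinase; PGAM, phosphoglycerate mutase; ENO, enolase; PK, pyruvate kinase; LDH, lactate dehydrogenase). Blue points are WT (n = 5), orange points aldh3a1_KO (n = 6) and bars the group means. The highest gene is gapdh, and hk1, pfklb and pgk1 are among the genes whose groups are apart.

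Many skeletal muscle transcripts fell in aldh3a1_KO as well, and they varied widely within both groups. Of 14 muscle markers, 9 fell and 0 rose, beside 29.3% and 26.0% of all tested genes, and none was at 0 in either genotype. Their summed TPM was 39731, 43179, 60554, 18769 and 30000 in WT 1 to 5 and 21926, 7501, 12897, 3455, 7866 and 14403 in aldh3a1_KO 1 to 6. In TPM the groups thus overlapped at WT 4 and aldh3a1_KO 1 alone. The overlap widens with mitochondrially encoded transcripts left out of the total. The muscle sum of aldh3a1_KO 1 then lies above those of WT 4 and WT 5, and that of aldh3a1_KO 6, narrowly, above that of WT 4. In WT the libraries had the same order, from WT 3 down through WT 2, WT 1 and WT 5 to WT 4, by muscle sum and by the TPM of the muscle-type genes pgam2, eno3 and pfkma and of aldoab. This order was not particular to them, since gpib, slc16a1b, h6pd and taldo1, among others, had it in WT too. How many of all tested genes share it was not counted. In aldh3a1_KO the order by muscle sum, from 1 down through 6, 3, 5 and 2 to 4, was also that of pgam2. For eno3, aldoab and pfkma libraries 3 and 6 changed places there, and for pfkma libraries 2 and 5 did too. The TPM of aldoaa had another order in both groups. These genes were compared after their values were seen. In TMM-scaled CPM rather than TPM, WT 3 held the highest value of its group for 18 of the 29 tested enzymes (62.1%) and for 29.4% of all tested genes. On that scale aldh3a1_KO 1 did so in its group for 16 of 29 (55.2%) and 22.1%. The part of muscle content in the difference between genotypes was not tested.

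**Figure D4:**
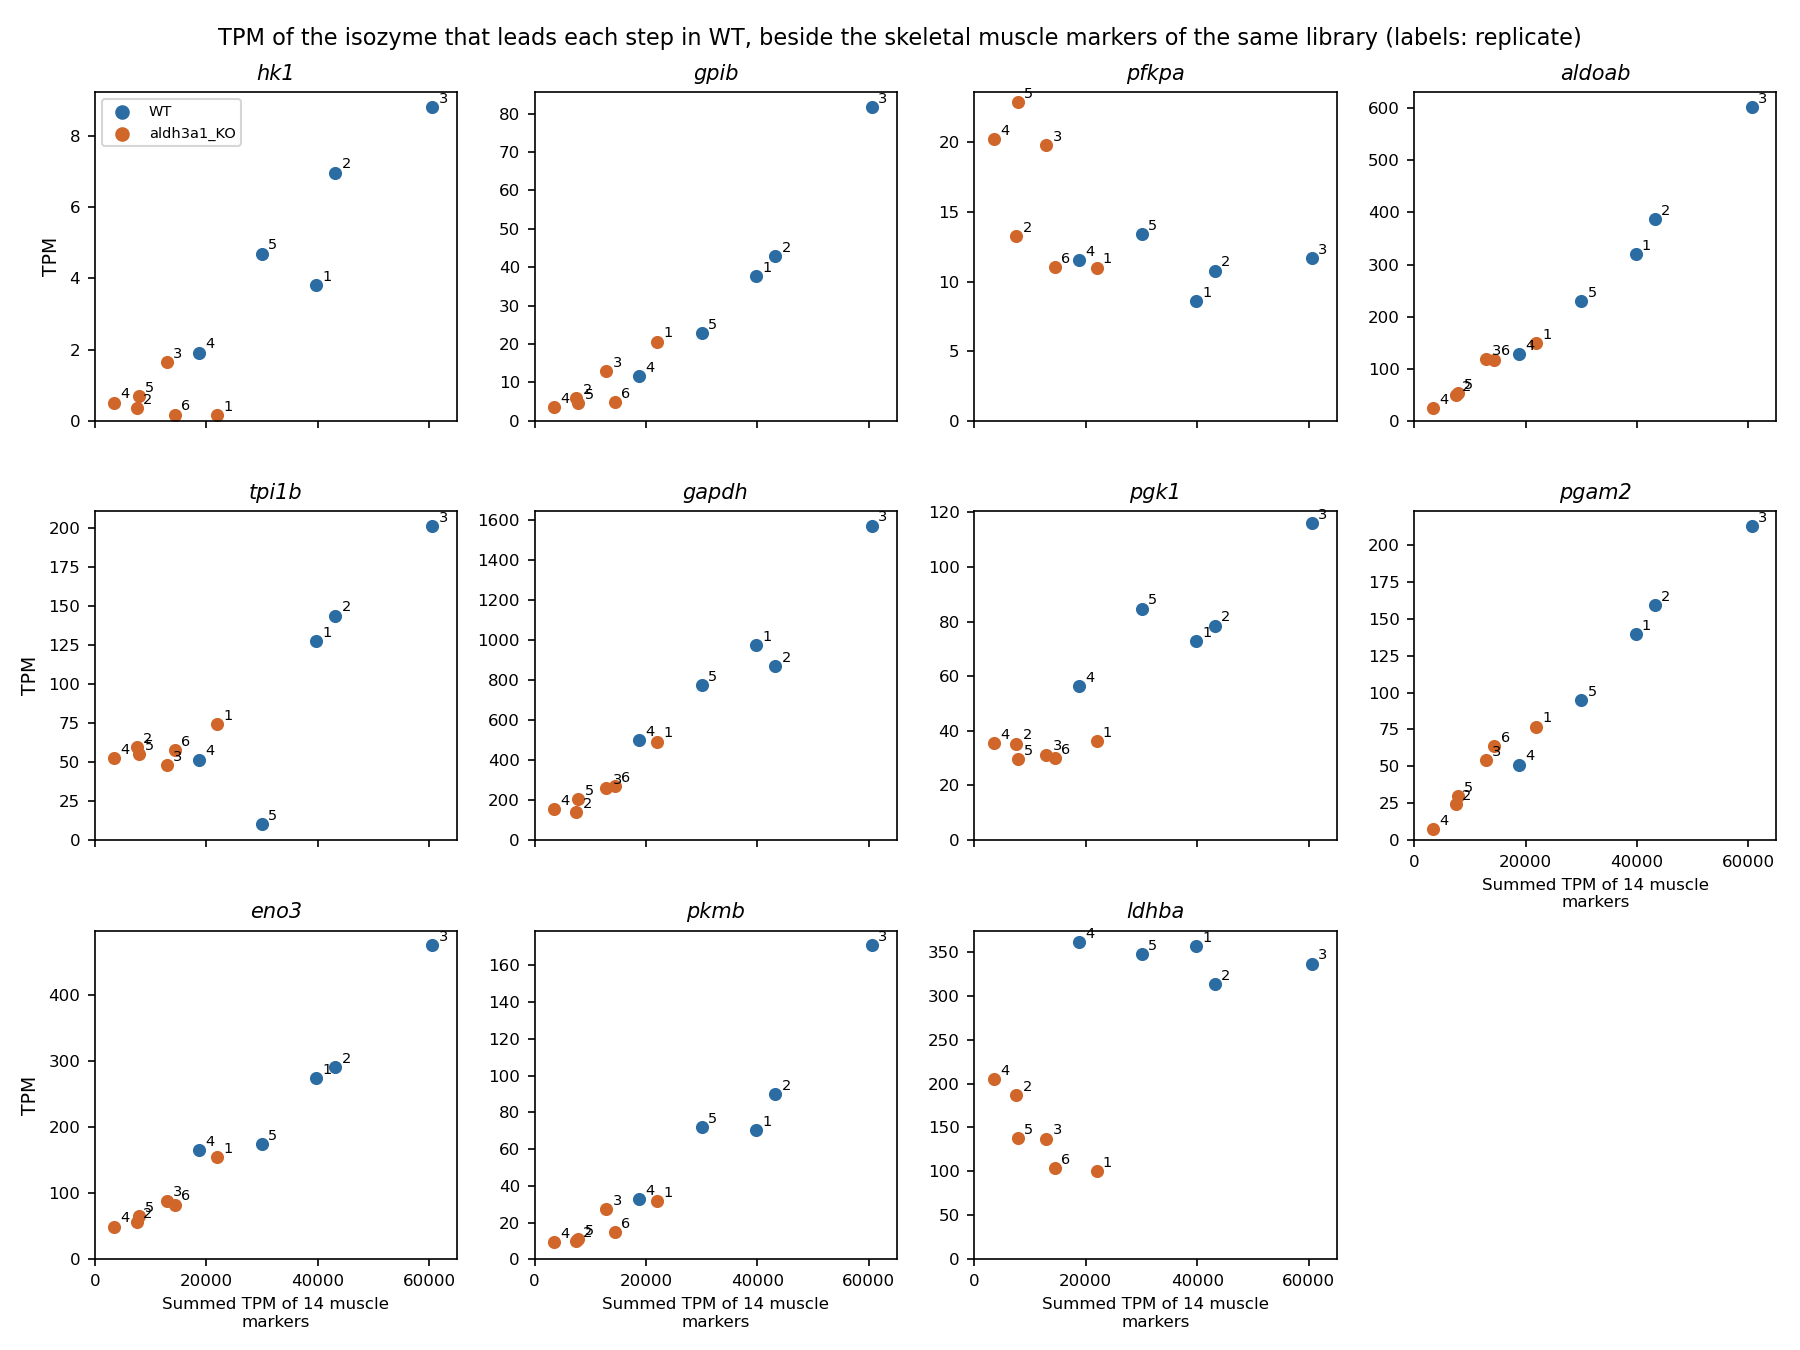
TPM of the isozyme with the highest WT mean at each of the 11 steps, in every library, against the summed TPM of 14 skeletal muscle markers in the same library, with replicate numbers beside the points (blue WT, orange aldh3a1_KO). In TPM only WT 4 and aldh3a1_KO 1, at muscle sums of 18769 and 21926 TPM, lie where the ranges of the groups meet. With mitochondrially encoded transcripts left out of the total, further libraries of both groups lie there.

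Genes that feed, control or drain the pathway had a median change near that of all tested genes, and both directions were called. Of 42 listed genes, 40 were found in the files and 35 were tested, of which 11 fell (31.4%) and 2 rose (5.71%), beside 29.3% and 26.0% of all tested genes. Their median log2 fold change was -0.20. Both genes that rose encode enzymes making or breaking down fructose 2,6-bisphosphate, the activator of phosphofructokinase. The first, pfkfb2a, was at 2.21, 2.29, 2.07, 2.77 and 2.87 TPM in WT and 3.35 to 7.50 TPM in aldh3a1_KO, with no overlap (log2 fold change 1.27 ± 0.21, edgeR adjusted p = 0.000239). The other, pfkfb4b, was at 10.04 to 11.9 TPM in WT and 10.9 to 22.0 TPM in aldh3a1_KO (log2 fold change 0.79 ± 0.16, edgeR adjusted p = 0.000886), and lost the call on log2(TPM + 1). The remaining genes of this family, pfkfb1, pfkfb2b, pfkfb3 and pfkfb4a, were not called, at log2 fold changes of -0.56, 0.33, -0.04 and -0.16.

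Of the 5 tested subunit genes of pyruvate dehydrogenase, which takes pyruvate into mitochondrial oxidation, 1 fell and 0 rose, beside 29.3% and 26.0% of all tested genes. That gene, dlat, which encodes the acetyltransferase subunit, was at 26.8, 38.2, 55.0, 19.3 and 27.4 TPM in WT and 2.59 to 8.86 TPM in aldh3a1_KO (log2 fold change -2.16 ± 0.29, edgeR adjusted p = 5.14e-05). The other 4, pdha1a, pdhb, pdhx and dldh, were at -0.06, -0.36, -0.11 and -0.01 (adjusted p from 0.0505 to 0.977). Of the 3 tested genes of its phosphatase, which activates it, 2 fell and 0 rose, beside the same 29.3% and 26.0% of all tested genes. The catalytic genes pdp1 and pdp2 fell, with pdp1 at -2.71 ± 0.39 (edgeR adjusted p = 8.43e-05). The regulatory subunit gene pdpr was at -0.01 and was not called. Beside the same 29.3% and 26.0% of all tested genes, 0 of the 5 tested pyruvate dehydrogenase kinase genes, which inhibit the enzyme, rose and 2 fell. These were pdk1 and pdk2a, at -1.02 ± 0.16 (adjusted p = 0.000187) and -1.02 ± 0.19 (adjusted p = 0.000487), while pdk2b, pdk3a and pdk4 were at 0.86, 0.10 and -0.20 and were not called. The phosphoglucomutase gene pgm2 was at 4.02 to 11.8 TPM in WT and 0.398 to 1.76 TPM in aldh3a1_KO (log2 fold change -2.62 ± 0.32, edgeR adjusted p = 3.24e-05). The monocarboxylate transporter gene slc16a1b, which moves lactate across membranes, had 1624 counts over the WT libraries and 73 over the aldh3a1_KO libraries (log2 fold change -4.24 ± 0.87, edgeR adjusted p = 0.00103). It was listed at 0 TPM in 4 of 6 aldh3a1_KO libraries.

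The pentose phosphate pathway branches off after hexokinase and supplies NADPH and ribose. Of its 9 listed genes, all tested, 7 fell and 0 rose, beside 29.3% and 26.0% of all tested genes, with a median log2 fold change of -1.11. The largest decrease was in the transketolase gene tkta, at 2.10, 2.98, 4.80, 1.68 and 4.49 TPM in WT and 0.137 to 0.289 TPM in aldh3a1_KO (log2 fold change -3.52 ± 0.32, edgeR adjusted p = 7.90e-06). The more abundant copy tktb fell from 46.2 ± 6.26 to 20.4 ± 5.60 TPM (SD, n = 5 and 6; log2 fold change -0.97 ± 0.15, adjusted p = 0.000154), and the transaldolase gene taldo1 from 64.8 ± 17.7 to 25.7 ± 5.85 TPM (log2 fold change -1.11 ± 0.16, adjusted p = 9.96e-05).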

How the data were processed

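The submitters' processing notes name Trim Galore 0.6.4, kallisto 0.4.6 (as given there) and the build danRer11. The authors deposited estimated counts per Entrez gene, which are not whole numbers, and, separately, TPM, in which the authors had divided by transcript length and library depth. Of 30243 identifiers, 25812 matched a symbol in RefSeq's GRCz12tu gene table, used for names and gene order only. Estimated counts were rounded to whole numbers. In R 4.3.3, edgeR 4.0.16 filtered genes with filterByExpr, scaled by TMM and tested genotype two-sided with the quasi-likelihood F test (robust), with Benjamini-Hochberg adjustment over all 22182 tested genes; SE comes from the F statistic. The workflow was tested on simulated data. Isozyme shares and sums used TPM. Kallisto divides reads among similar copies, so the split between near-identical isozymes is uncertain.

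Members, lists, tests and alternatives were chosen with earlier results of these data known. All 32 enzymes are named. Of the control list at most 8, and of the pentose phosphate list at most 3, genes past the threshold with the smallest adjusted p are named. The other subunits and regulators of pyruvate dehydrogenase and the uncalled pfkfb genes, all of the control list, were named after their values were seen. Alternatives were DESeq2 1.42.0, other scalings and filters, limma 3.58.1 on log2(TPM + 1) and log2(TPM + 0.1), the replicate number as a block, and each library left out. Errors are SD or SE over libraries. Plots used Python 3.11.15 and matplotlib 3.10.9.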

Additional observations from a re-analysis of the deposited data

Results flagged for a closer look

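A single library stood far from its group in 1 of 110 checks of enzyme levels, step sums and leading shares (Dixon's ratio), and chance flags about 1 in 20. The tpi1b share of triosephosphate isomerase TPM was 38.2% in WT 5, with the other 4 WT libraries at 81.0 to 95.1%.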

How the results depend on the processing

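Over 21 alternative fits the count of enzymes that fell stayed within 1.5 times the reported 15, with 14 to 16 over the fits without 1 library each and 19 on both TPM scales. The 3 rising enzymes became 0 on log2(TPM + 1) and 0 on log2(TPM + 0.1). There the rising control genes numbered 1 and 1, the enzymes' median was -1.02 on log2(TPM + 0.1), and aldh3a1 passed at -0.43 and -0.79 (limma adjusted p = 0.0300 and 0.0387). The TPM scale moves the median of all genes to -0.26 and -0.36, against -0.12 with TMM, -0.03 with DESeq2 size factors and 0.0103 without a filter. Signs turned for uncalled genes: hk2 (-0.00402 on log2(TPM + 1), -0.19 without aldh3a1_KO 1, 5 and 6), pkma (0.0505 without these) and, with 1 library left out, pkma (-0.18 to 0.0653) and gapdhs (-0.24 to 0.0213). The log2 ratio of phosphofructokinase sums turned to 0.11 on CPM, 0.0730 with median-ratio factors and 0.00949 without mitochondrially encoded genes. With 1 library left out, 6 to 9 steps kept 1 leader in both genotypes, and 5 did without aldh3a1_KO 1, 5 and 6, where gapdhs and pgam1b led in aldh3a1_KO. The cause was not tested. Same-numbered samples correlated at 0.01 to 0.15. For WT 1 and 2, but not WT 3, 4 and 5, the best-matching aldh3a1_KO library had the same number. The labels name no pairing, and such low correlations cannot settle whether the numbers pair the samples. With the replicate block, which leaves out aldh3a1_KO 6, 11125 genes were called, and 15 enzymes fell and 3 rose. There pgam2 was gained (-1.69, edgeR adjusted p = 0.00346) and aldoaa lost (-0.57, edgeR adjusted p = 0.0626). Library number and total limit what low genes such as gck can show.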

Other observations

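In the RefSeq GRCz12tu gene order, tpi1a and eno2 are neighbours with 0 protein-coding genes between them, yet eno2 rose while tpi1a was not called (log2 fold changes 1.03 ± 0.26 and -0.32 ± 0.20 SE, edgeR adjusted p = 0.00460 and 0.191). The hexokinase gene hk1 and its neighbour hkdc1, which is not among the 32, also have 0 genes between them. There hk1 was at -3.02 ± 0.49, and hkdc1, at 0.367 ± 0.112 TPM in WT and 0.356 ± 0.154 TPM in aldh3a1_KO (SD, n = 5 and 6), was at 0.17 ± 0.36 (edgeR adjusted p = 0.706). The difference between neighbours was not tested.

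The enzymes also differed in how steady they were within a genotype. On log2 CPM, the SD over the WT libraries was 0.15 for ldhba and pfkpb and 1.67 for tpi1b, with 0.26 as the median of all tested genes. Over the aldh3a1_KO libraries it was 0.17 for aldocb and 1.40 for pgam2, with a median of 0.47.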
